A study of Mus musculus with 12 samples.

Results

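Vascular, mural and fibroblast genes were followed in RNA from dorsal root ganglia, the clusters of sensory nerve cell bodies beside the spinal cord, of adult mice in which Prdm12 had been deleted. The set is a list of 31 genes out of the 55416 in the count tables, made up of 12 endothelial, 7 mural and 12 fibroblast genes, and each was found by its symbol. The libraries held 13943784 to 20377766 counts each. All 31 passed the filter on low counts, both in the fit to 12 libraries, which kept 16384 genes, and in a fit to 11 libraries that left out the library titled iKO 1, which kept 16454 genes.

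The 6 libraries titled iKO (inducible knockout) came from animals with Rosa26Cre ERT2 and the genotype Fl/Fl at Prdm12, given tamoxifen, and iKO 1 to 3 were female and iKO 4 to 6 male. The 6 control libraries were of several kinds. Control 1 was Rosa26Cre ERT2 with Fl/+ and female, and control 2 was +/+ with Fl/+ and female. Control 3 was +/+ with Fl/+ and male, and control 4 was Rosa26Cre ERT2 with +/+ and male, all 4 given tamoxifen. Controls 5 and 6 were male Rosa26Cre ERT2 and Fl/Fl animals given corn oil. All animals were labelled C57Bl6, and tamoxifen had been given 1 month before. The Rosa26 locus is active in nearly all cell types, so this Cre is not limited to neurons. Prdm12 encodes a zinc finger protein that nociceptor development requires. Its level was 18.6, 23.5, 25.3, 24.3, 25.4 and 22.9 CPM (counts scaled to library size) in iKO 1 to 6, against 127, 121, 107, 139, 147 and 64.6 CPM in control 1 to 6. Every iKO library thus lay below every control, including iKO 1, which was the lowest.

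Endothelial cells line the vessels, and their junctions and tyrosine kinase receptors are marked by the first part of the list. Mural cells, the pericytes of capillaries and the smooth muscle cells of larger vessels, wrap the endothelium and set vessel tone. Fibroblasts make the collagen and proteoglycan matrix of the ganglion capsule, of the sheaths around nerve fascicles and of the outer vessel wall. Ganglion capillaries are known for being more permeable than those of the brain. In whole tissue, a lower level of such a gene can come from fewer cells of a type or from less RNA per cell, and these cannot be told apart here.

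Promoters of 4 genes drawn from the endothelial, mural and fibroblast parts are shown. Each covers 250 bases before to 50 after a RefSeq transcription start on GRCm38.p6. Plvap and Dcn had no such promoter in the RefSeq table. The capitals in the promoters of Kdr (chr5:75978406-75978705, minus strand) and Tie1 (chr4:118489800-118490099, minus strand) mark GGAA on either strand, the core read by ETS factors, a family with members that act in endothelium. The capitals in those of Rgs5 (chr1:169655251-169655550, plus strand) and Col1a2 (chr6:4505368-4505667, plus strand) mark CCAAT on either strand.
Kdr: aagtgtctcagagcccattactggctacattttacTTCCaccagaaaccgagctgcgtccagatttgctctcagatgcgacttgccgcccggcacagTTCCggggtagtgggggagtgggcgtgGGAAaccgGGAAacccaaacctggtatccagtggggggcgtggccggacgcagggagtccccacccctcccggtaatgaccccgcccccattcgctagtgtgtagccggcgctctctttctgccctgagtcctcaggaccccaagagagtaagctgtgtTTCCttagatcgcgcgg
Tie1: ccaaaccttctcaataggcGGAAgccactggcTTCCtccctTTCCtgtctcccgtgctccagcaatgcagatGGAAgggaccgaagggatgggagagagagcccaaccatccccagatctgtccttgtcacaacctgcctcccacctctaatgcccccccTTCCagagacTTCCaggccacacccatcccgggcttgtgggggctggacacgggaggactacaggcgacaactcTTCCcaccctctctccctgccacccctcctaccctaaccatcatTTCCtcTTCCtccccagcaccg
Rgs5: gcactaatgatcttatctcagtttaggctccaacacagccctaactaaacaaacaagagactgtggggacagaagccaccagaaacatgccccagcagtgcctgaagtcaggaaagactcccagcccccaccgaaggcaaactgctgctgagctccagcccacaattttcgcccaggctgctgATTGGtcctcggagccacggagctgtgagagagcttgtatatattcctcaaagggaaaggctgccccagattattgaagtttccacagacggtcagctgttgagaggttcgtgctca
Col1a2: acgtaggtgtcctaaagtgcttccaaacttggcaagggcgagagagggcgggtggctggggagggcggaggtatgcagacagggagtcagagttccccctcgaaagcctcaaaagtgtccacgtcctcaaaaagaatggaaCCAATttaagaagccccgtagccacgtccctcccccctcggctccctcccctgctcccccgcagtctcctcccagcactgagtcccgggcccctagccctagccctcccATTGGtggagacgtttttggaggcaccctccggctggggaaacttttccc

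Such matches describe letters and not binding. GGAA occurred 5 times in the Kdr window and 9 times in the Tie1 window, and the median over all 32851 promoters of this length was 3. At least 5 matches were found in 28.6% of all promoters and at least 9 in 1.59%. The Tie1 count was the highest of any window of the gene set. GGAA also occurred 4 times in the Rgs5 window and 5 times in that of Col1a2, where it is not capitalised. Its median per window was 4 for endothelial, 3.5 for mural and 4.5 for fibroblast genes. CCAAT occurred once in the Rgs5 window and 2 times in that of Col1a2, and 37.4% of all promoters held at least 1 match and 11.7% at least 2. The RefSeq table held promoters for 19 of the 31 genes, in 23 windows. GGAA was in those of 18 of the 19, against 96% of all promoters. The CArG box, bound by serum response factor in smooth muscle, was sought in its strict form only, CCWWWWWWGG with W for A or T. This form was in 0 of the 19, against 1.63% of all promoters. Looser forms were not counted, and Myh11 and Tagln were among the genes without a window.

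Levels spanned a wide range. Divided by exon length, Dcn, which encodes the small proteoglycan decorin, was the highest of the 31 at 134 ± 12.9 CPM per kb in iKO 2 to 6 and 180 ± 22.4 CPM per kb in the controls (SD, n = 5 and 6). Rgs5, a regulator of G protein signalling that marks pericytes, followed at 56.7 ± 2.51 CPM per kb in iKO 2 to 6 and 68.0 ± 6.79 CPM per kb in the controls. Among endothelial genes Plvap, the protein of fenestral and caveolar diaphragms, had the highest level in the controls, at 5.80 ± 0.405 CPM per kb in iKO 2 to 6 and 8.14 ± 0.468 CPM per kb in the controls. Cldn5, the tight junction claudin, stood close to it at 6.42 ± 0.768 CPM per kb in iKO 2 to 6 and 7.90 ± 1.66 CPM per kb in the controls, so that their order in the controls lies within the spread. The lowest was Cnn1, the smooth muscle calponin, at 0.642 ± 0.330 CPM per kb in iKO 2 to 6 and 0.863 ± 0.457 CPM per kb in the controls, with 16 to 88 counts in a library.

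The library iKO 1 stood apart from the other 5 iKO libraries in this gene set before any comparison with controls. It was the highest of all 12 libraries for 29 of the 31 genes, where the same held for 24.6% of all genes tested and iKO 1 was the lowest for 24.4%. Its level was at least 1.5 times the median of iKO 2 to 6 for 27 of the 31 genes, against 14.3% of all genes. The ratio ranged from 0.943 to 4.02 with a median of 2.24, and the median over all genes was 0.992. Endothelial genes had a median ratio of 2.06, mural genes 2.13 and fibroblast genes 2.43.

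**Figure D1:**
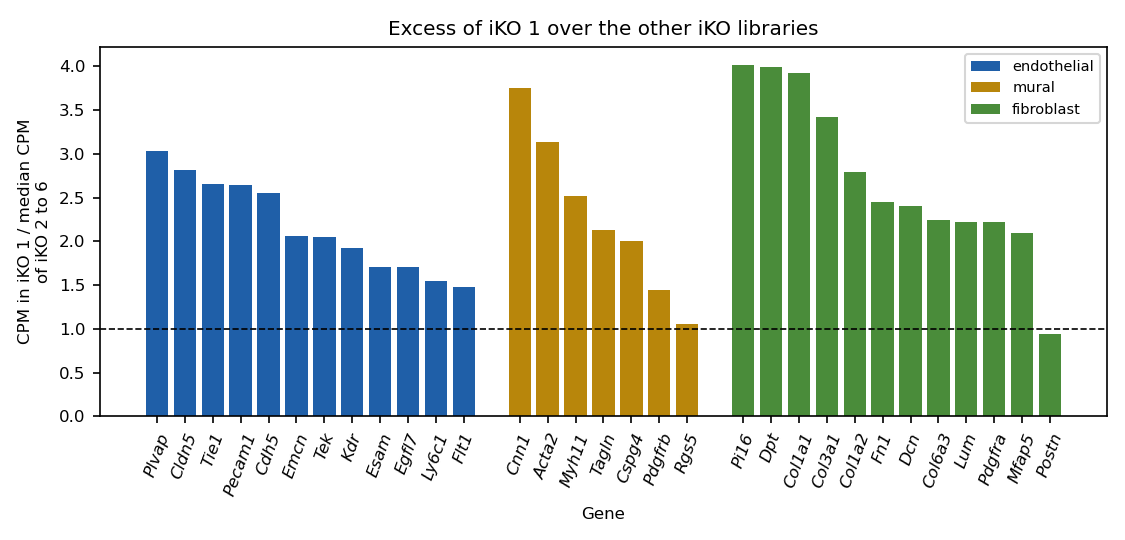
Ratio of the CPM in iKO 1 to the median CPM of iKO 2 to 6 for each of the 31 genes (linear axis from 0, dashed line at equal level), grouped by compartment. The ratio is near 1 for Rgs5 and Postn and reaches 4.02 for Pi16.

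Rgs5 and Postn were the exceptions. Postn encodes periostin, a matrix protein of activated fibroblasts, and its ratio was 0.943, while that of Rgs5 was 1.05. The highest ratios belonged to genes of adventitial and collagen-producing fibroblasts. Pi16, a marker of adventitial fibroblasts, was at 4.02 and Dpt, the matrix protein dermatopontin, at 3.99, and Col1a1, the alpha 1 chain of type I collagen, was at 3.92.

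Marker lists of several other cell types were high in iKO 1 as well. Summed over 10 macrophage genes the level was 397 CPM in iKO 1, 137 to 171 CPM in iKO 2 to 6 and 142 to 229 CPM in the controls. Summed over 5 erythroid genes it was 287 CPM in iKO 1, 72.5 to 161 CPM in iKO 2 to 6 and 123 to 267 CPM in the controls. Relative to the median of iKO 2 to 6, iKO 1 stood at 4.16 for lymphocyte, 3.32 for adipocyte, 2.83 for neutrophil, 2.72 for mast cell, 2.10 for perineurial, 1.91 for lymphatic endothelial and 1.90 for meningeal fibroblast genes, and at 3.14 for cell cycle genes. It stood at 1.31 for myelinating Schwann cell and 1.28 for satellite glia genes. For skeletal muscle (1.84) and spinal cord genes (1.27) iKO 1 lay inside the range of the other libraries. Summed skeletal muscle genes were at 75.6 CPM in iKO 1, 19.3 to 100 CPM in iKO 2 to 6 and 20.5 to 449 CPM in the controls. Spinal cord genes were at 27.5 CPM in iKO 1, below the highest of iKO 2 to 6 (31.9 CPM) and of the controls (33.97 CPM). Sensory neuron genes were lowest in iKO 1, at 10497 CPM, against 13721 to 15278 CPM in iKO 2 to 6 and 11327 to 15647 CPM in the controls. Every marker was detected in every library, except that Myh1 (skeletal muscle), Lep (adipocyte) and Olig1 (spinal cord) were at 0 in some of them. The share of mitochondrial counts was 3.89% in iKO 1 and 2.29% to 3.52% in the other 11 libraries. The part of these values in the vascular and fibroblast results was not tested.

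**Figure D2:**
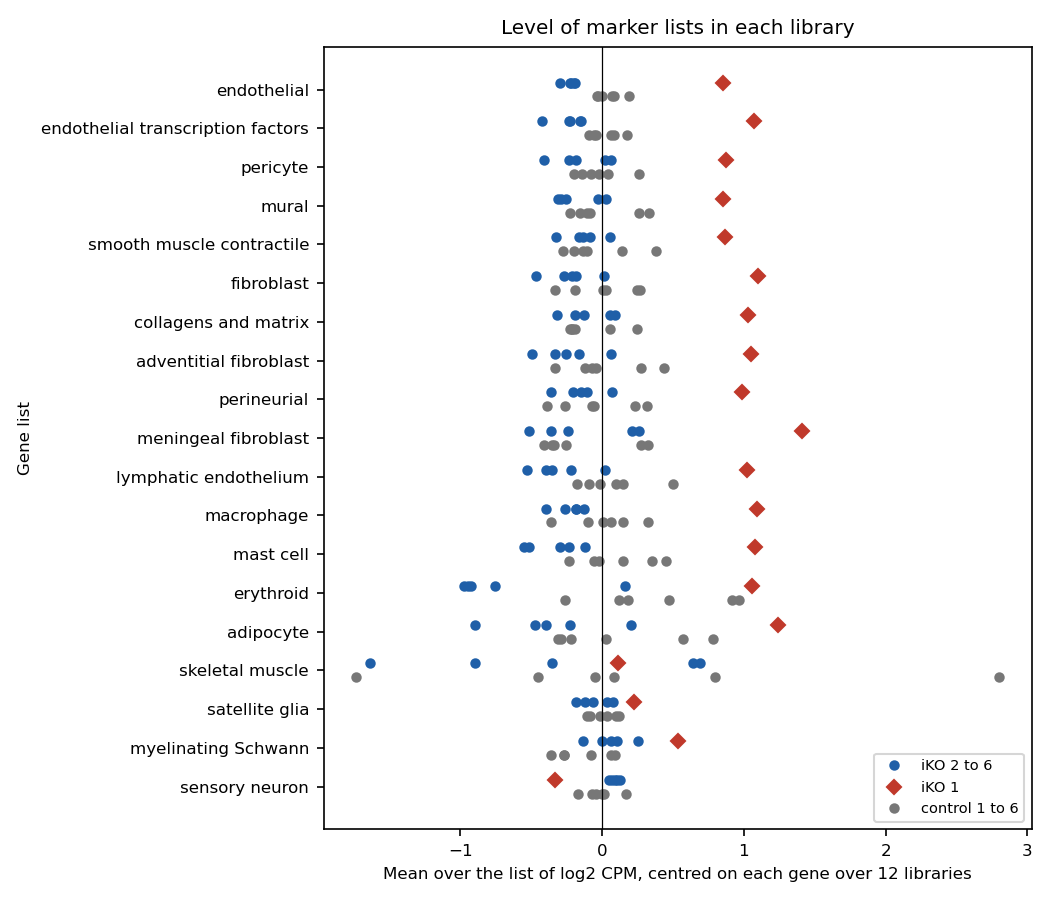
Marker level in each library (horizontal axis), the average over the genes of a list of log2 CPM minus that gene's 12-library mean, for iKO 2 to 6 (blue), iKO 1 (red diamonds) and controls (grey). The red diamond lies to the right of all other libraries for the vascular, fibroblast, macrophage and mast cell lists and to the left for sensory neurons.

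Over all 12 libraries, 0 of the 31 genes differed between iKO and control at an adjusted p under 0.05 (edgeR quasi-likelihood test, Benjamini-Hochberg), where 0.946% of all genes tested did, 0.409% lower and 0.537% higher. At an unadjusted p under 0.05 there were 2 of 31, Rgs5 and Postn, both lower, against 9.52% of all genes in either direction and 4.18% lower. DESeq2 called 1 gene lower, Rgs5, against 0.739% of all genes. limma-voom with sample weights called 4 lower, Rgs5, Plvap, Dcn and Emcn, against 2.39%. That fit gave iKO 1 a weight of 0.166, against 0.618 to 1.87 for the other libraries. Fold changes were negative for 19 genes and positive for 12, against 50% negative among all genes, with a median of -0.05, and the median of all genes was 0.00. By compartment the medians were -0.08 for endothelial, 0.01 for mural and -0.02 for fibroblast genes.

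Without iKO 1, 3 of the 31 genes were lower in iKO and 0 higher at an adjusted p under 0.05 (edgeR quasi-likelihood test, Benjamini-Hochberg), where 2.21% of all genes passed, 1.01% lower and 1.2% higher. The 3 were Plvap and Kdr of the endothelial and Dcn of the fibroblast genes, and DESeq2 called 9 and limma-voom 7 lower, against 1.77% and 2.8% of all genes. Fold changes were negative for 28 of 31 genes, against 50.9% of all genes, and the median was -0.26, with -0.00 over all genes. At an unadjusted p under 0.05, 17 of 31 were lower and 0 higher, and 7.91% of all genes were lower at that level (16.2% in either direction). Because iKO 1 was chosen for its measured values and was the highest library for most of these genes, leaving it out lowers the iKO mean of nearly all of them by construction.

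**Figure D3:**
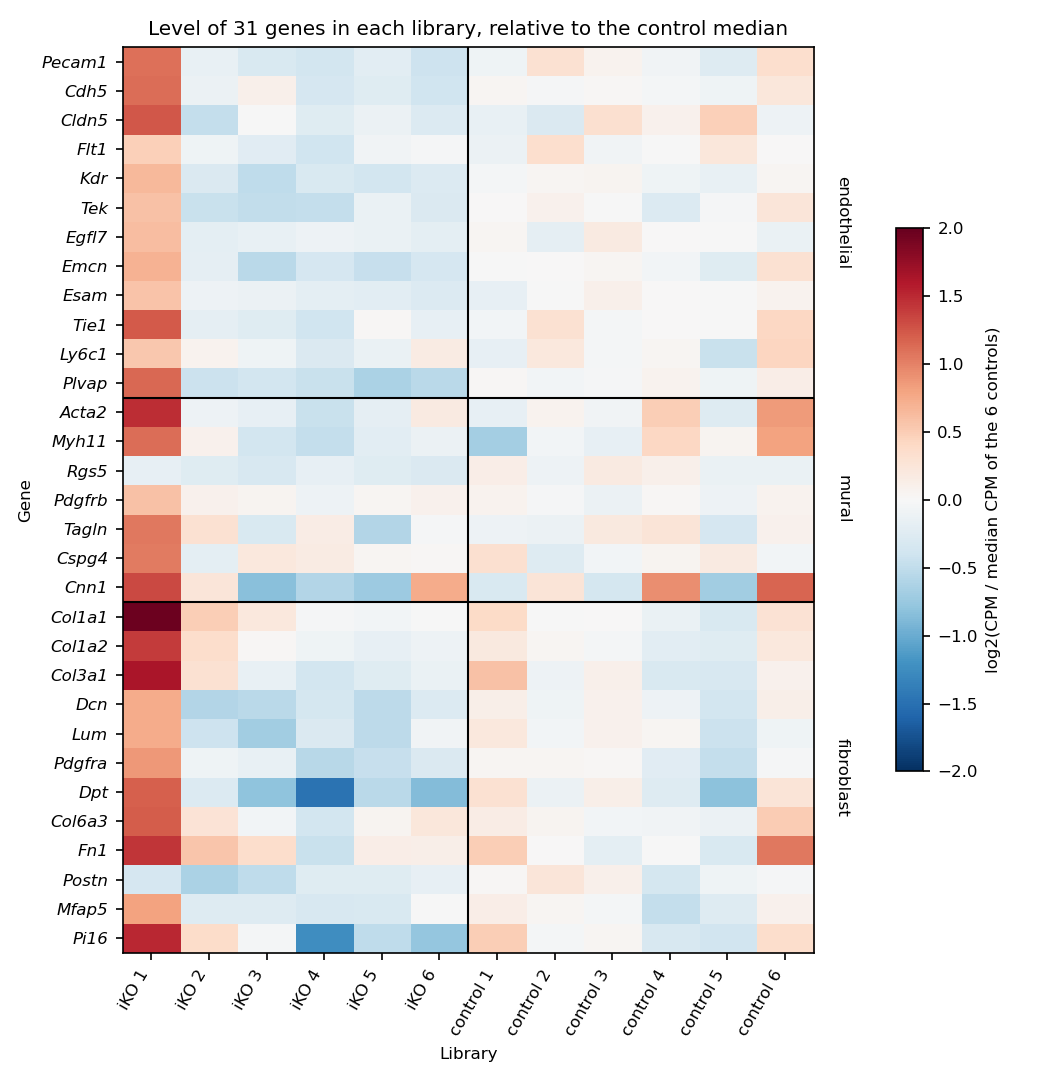
Level of each of the 31 genes in each library as log2 of its CPM over the median CPM of the 6 controls (colour scale from -2 to 2), with iKO libraries on the left. The iKO 1 column is high for all genes but Rgs5 and Postn, and most endothelial genes are pale to mid blue in iKO 2 to 6.

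Among the endothelial genes, all 12 had a negative log2 fold change without iKO 1, with a median of -0.28, and 10 of the 12 reached an unadjusted p under 0.05, against 7.91% of all genes lower at that level. Summed over the 12, the level was 355 CPM in iKO 1 and 158 to 172 CPM in iKO 2 to 6, against 190 to 219 CPM in the controls. The sums of iKO 2 to 6 and of the controls did not overlap, and iKO 1 was above both.

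Plvap was at 35.8, 11.98, 12.4, 11.8, 10.4 and 11.1 CPM in iKO 1 to 6, against 16.4, 15.4, 15.8, 16.8, 15.1 and 17.6 CPM in control 1 to 6. iKO 2 to 6 all lay below the lowest control and iKO 1 lay above the highest, an arrangement in which iKO 2 to 6 are below every control that 1.27% of all genes shared. With iKO 1 its log2 difference was -0.18 ± 0.28 (SE, edgeR quasi-likelihood test, adjusted p = 0.874), and without it -0.49 ± 0.07 (adjusted p = 0.00187), 71.3% of the control level. Within replicates 1 to 4 and without iKO 1 it was -0.40 ± 0.09 (adjusted p = 0.0372 in edgeR), where 0.813% of all genes were called lower. Within replicates 5 and 6, where all iKO libraries had tamoxifen and all controls corn oil, it was -0.61 ± 0.14 (edgeR adjusted p = 0.122), where 0.267% were called lower. Of the genes in the set, it was the only one past the threshold in all 21 settings of the comparison without iKO 1.

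Kdr, the main signalling receptor for VEGF-A, was at 18.5, 9.65, 8.32, 9.60, 9.19 and 9.77 CPM in iKO 1 to 6, against 11.5, 12.1, 12.3, 11.2, 10.6 and 12.2 CPM in control 1 to 6. Here too iKO 2 to 6 were below and iKO 1 above all controls. Its difference on the log2 scale was -0.15 ± 0.17 over 12 libraries (adjusted p = 0.818, edgeR quasi-likelihood test) and -0.32 ± 0.08 without iKO 1 (adjusted p = 0.0479), and this call was kept in 8 of the 21 settings. It was lost when any single further library other than control 5 was left out, with adjusted p between 0.0539 and 0.144 in those edgeR fits.

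**Figure D4:**
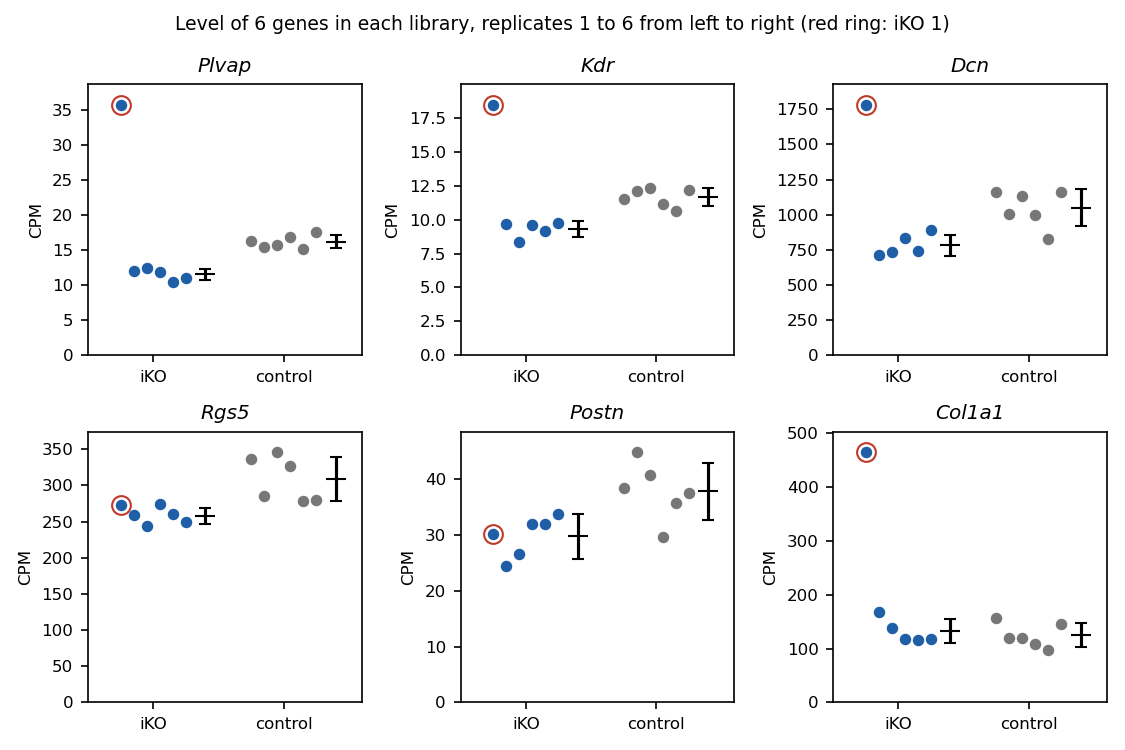
CPM of Plvap, Kdr, Dcn, Rgs5, Postn and Col1a1 in iKO and control libraries (vertical axes from 0), with the mean and SD of iKO 2 to 6 and of the controls as bars and iKO 1 ringed in red. iKO 1 is far above the rest for Plvap, Kdr, Dcn and Col1a1 and among the other iKO libraries for Rgs5 and Postn.

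For a receptor, a mucin and an adhesion gene the fold changes lay between those of Plvap and Kdr. Tek (Tie2), the angiopoietin receptor, averaged 9.03 ± 1.00 CPM in iKO 2 to 6 and 11.7 ± 1.34 CPM in the controls (SD, n = 5 and 6), with a log2 fold change of -0.37 ± 0.10 without iKO 1 (edgeR adjusted p = 0.0721). Emcn, the sialomucin endomucin of veins and capillaries, averaged 10.2 ± 0.963 CPM in iKO 2 to 6 and 13.3 ± 1.67 CPM in the controls, with -0.38 ± 0.10 (edgeR adjusted p = 0.0609). Pecam1 (CD31), an adhesion molecule of endothelial junctions, averaged 20.7 ± 1.62 CPM in iKO 2 to 6 and 26.4 ± 4.33 CPM in the controls, with -0.35 ± 0.10 (edgeR adjusted p = 0.0883). None of these passed with edgeR, while DESeq2 called Tek (adjusted p = 0.0339), Emcn (adjusted p = 0.0250) and Pecam1 (adjusted p = 0.0388) and limma-voom called Emcn and Pecam1. iKO 2 to 6 overlapped with the controls for each.

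The other endothelial genes had smaller differences without iKO 1. Tie1, the receptor that pairs with Tek, had a log2 fold change of -0.30 ± 0.11, Cldn5 of -0.27 ± 0.12, Cdh5 (VE-cadherin, the adherens junction protein) of -0.23 ± 0.09 and Flt1 (VEGF receptor 1) of -0.22 ± 0.09. Esam, an endothelial adhesion molecule, was at -0.18 ± 0.07 and Egfl7, a secreted endothelial factor, at -0.14 ± 0.07. Ly6c1 was at -0.08, with a 95% interval from -0.34 to 0.18, and reads of this gene may be shared with a near-identical neighbour of its family. The edgeR adjusted p of these 7 lay between 0.184 and 0.811.

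The mural genes had no call in either comparison with edgeR, and at an unadjusted p under 0.05 there was 1 of 7 in each, Rgs5, against 9.52% of all genes over 12 libraries and 16.2% without iKO 1. Rgs5 was at 272, 259, 245, 274, 260 and 250 CPM in iKO 1 to 6, against 336, 286, 346, 327, 279 and 280 CPM in control 1 to 6. All 6 iKO libraries were below every control, an order that 0.665% of all genes showed, and the highest iKO library was close to the lowest control. On the log2 scale the difference was -0.25 ± 0.07 with iKO 1 (adjusted p = 0.166, edgeR quasi-likelihood test) and -0.26 ± 0.06 without it (adjusted p = 0.0510). Within replicates 1 to 4 it was -0.29 ± 0.07 without iKO 1 (edgeR adjusted p = 0.0380), and within replicates 5 and 6 it was -0.13 ± 0.06 (edgeR adjusted p = 0.606). Over the alternatives of the comparison without iKO 1 its adjusted p ranged from 0.00124 to 0.164, and 10 of the 20 alternatives called it.

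The contractile smooth muscle genes varied among the controls. Acta2, smooth muscle actin, was at 46.2, 15.4, 14.7, 12.2, 14.6 and 18.9 CPM in iKO 1 to 6, against 14.7, 17.4, 15.8, 23.2, 13.9 and 29.8 CPM in control 1 to 6. Myh11, the smooth muscle myosin heavy chain, was at 27.6, 13.5, 9.92, 9.19, 10.9 and 11.7 CPM in iKO 1 to 6, against 7.99, 12.2, 11.4, 17.0, 13.2 and 22.3 CPM in control 1 to 6. For both genes, and for Cnn1, controls 6 and 4 were the 2 highest controls and the groups overlapped. Without iKO 1 their log2 fold changes were -0.31 ± 0.20 for Acta2, -0.30 ± 0.22 for Myh11 and -0.40 ± 0.39 for Cnn1, with edgeR adjusted p between 0.457 and 0.648. The pericyte receptor Pdgfrb stood at 0.05, with a 95% interval from -0.06 to 0.16, and the pericyte proteoglycan Cspg4 (NG2) at 0.02 ± 0.10. Tagln (transgelin) was at -0.07 ± 0.17, but 67.9% of its exon bases are shared with genes on the opposite strand and the libraries do not record strand, so its counts are uncertain.

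Among the fibroblast genes the decorin gene Dcn was the only one past the threshold with edgeR without iKO 1, while DESeq2 called Dcn, Dpt and Postn and limma-voom Dcn and Dpt. Its level was 1784, 713, 736, 837, 743 and 888 CPM in iKO 1 to 6, against 1162, 1007, 1136, 1001, 830 and 1162 CPM in control 1 to 6. The groups overlapped, since iKO 4 and iKO 6 were above control 5, and iKO 1 was the highest of all. The difference was -0.20 ± 0.21 on the log2 scale over 12 libraries (edgeR adjusted p = 0.809) and -0.42 ± 0.09 without iKO 1 (edgeR adjusted p = 0.0219), 74.9% of the control level. It was called in 16 of the 21 settings and was lost when iKO 2, iKO 3, iKO 5, control 1 or control 2 was also left out, with an adjusted p from 0.052 to 0.0803.

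Other secreted proteoglycans and matrix organisers had negative fold changes that did not pass with edgeR. Without iKO 1 the log2 fold change was -0.36 ± 0.12 for Lum (the proteoglycan lumican; edgeR adjusted p = 0.187), -0.73 ± 0.20 for Dpt (edgeR adjusted p = 0.0911, DESeq2 0.0139, limma-voom 0.0334) and -0.49 ± 0.21 for Pi16 (edgeR adjusted p = 0.295). Pdgfra, the receptor for PDGF-A that marks fibroblasts, was at -0.22 ± 0.08, and Mfap5, a microfibril protein, at -0.16 ± 0.10. Postn, for which iKO 1 was not high, was at 30.1, 24.5, 26.6, 32.0, 32.0 and 33.7 CPM in iKO 1 to 6, against 38.4, 44.9, 40.8, 29.7, 35.8 and 37.5 CPM in control 1 to 6. All 6 iKO libraries lay below 5 of the controls, and control 4 lay among them. Its log2 fold change hardly differed between the fits, at -0.34 ± 0.10 with iKO 1 (edgeR adjusted p = 0.181) and -0.35 ± 0.10 without it (edgeR adjusted p = 0.113, DESeq2 0.0478).

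The 2 genes of type I collagen had fold changes near 0 once iKO 1 was left out. Col1a1 was at 465, 168, 139, 118, 116 and 119 CPM in iKO 1 to 6, against 156, 119, 120, 109, 97.2 and 146 CPM in control 1 to 6, so that iKO 2 to 6 and the controls covered nearly the same range. Its log2 fold change was 0.37 ± 0.31 over 12 libraries and 0.06 without iKO 1, with a 95% interval from -0.14 to 0.25. Col1a2, the other chain of type I collagen, was at 0.21 ± 0.22 over 12 libraries and -0.00 without iKO 1, with a 95% interval from -0.16 to 0.16. Without iKO 1 type III collagen (Col3a1) stood at -0.16 ± 0.14, the type VI chain Col6a3 at -0.05 ± 0.13 and fibronectin (Fn1) at -0.11 ± 0.28. Control 6 was the highest control for Col6a3 and Fn1.

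**Figure D5:**
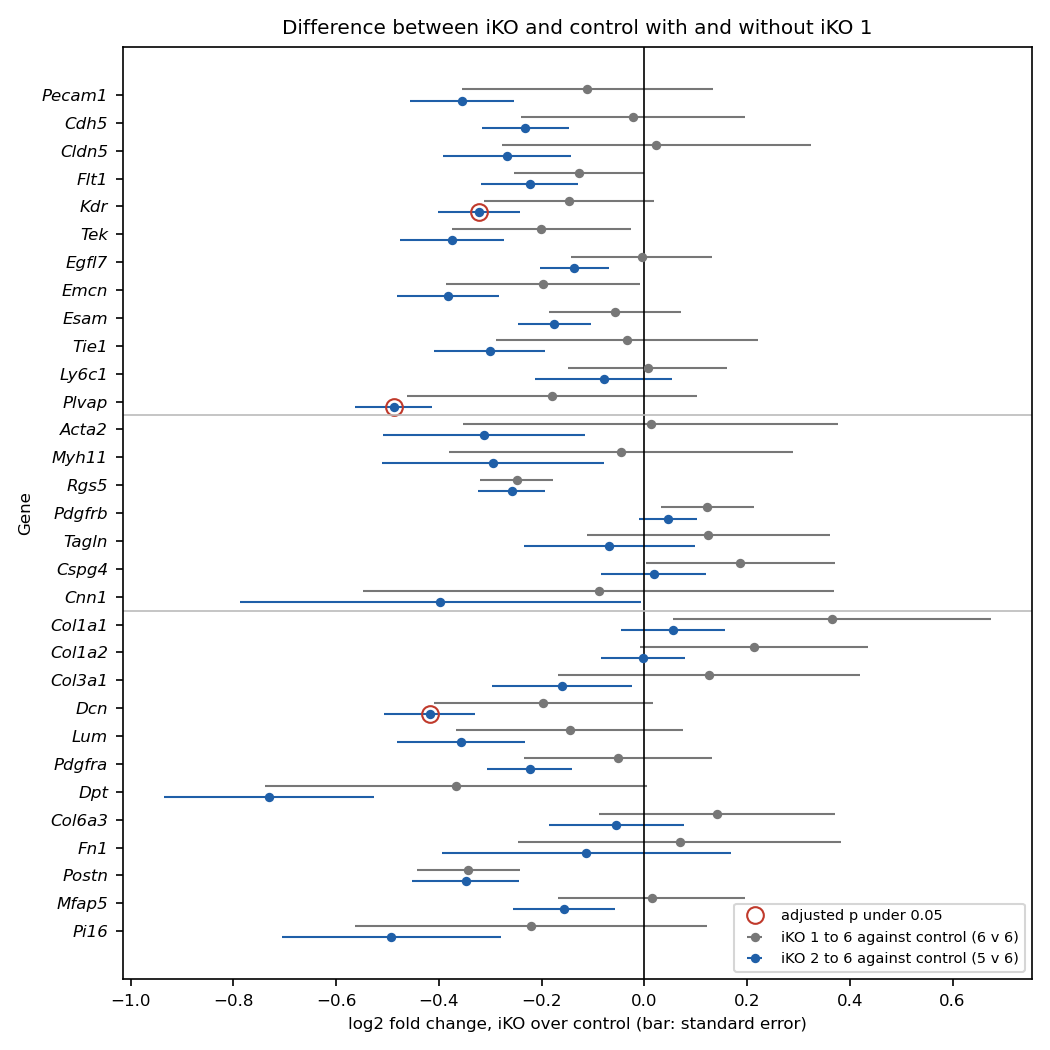
Log2 fold change of iKO over control for each gene (horizontal axis) with 1 standard error, in the fit to 12 libraries (grey) and without iKO 1 (blue), ringed where the adjusted p is under 0.05. The blue points lie to the left of the grey ones for all genes shown, the shift is small for Rgs5 and Postn, and rings mark Plvap, Kdr and Dcn.

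A further 126 genes of 10 related lists were tested. With edgeR 0 of them were called in either comparison, where 0.946% of all genes were over 12 libraries and 2.21% without iKO 1. At an unadjusted p under 0.05 there were 10 of 126 over 12 libraries, 2 lower and 8 higher, against 9.52% of all genes. Without iKO 1 there were 30 of 126, 19 lower and 11 higher, against 16.2%. DESeq2 called 0 over 12 libraries and 2 without iKO 1, and limma-voom 5 and 10, in either direction. Of all genes, DESeq2 called 0.739% and 1.77% lower in these comparisons, and limma-voom 2.39% and 2.8%. Shares in either direction were larger, by the totals given in the last section. The 10 endothelial transcription factor genes were all negative without iKO 1, with a median of -0.28, and their summed level was 113 CPM in iKO 1 and 49.2 to 55.8 CPM in iKO 2 to 6, against 58.1 to 66.6 CPM in the controls. Only iKO 1 lay above the controls, and iKO 2 to 6 lay below them all. Ets1, an ETS factor, had the smallest p of these over 12 libraries, with 19.8 ± 2.78 CPM in iKO and 21.6 ± 1.25 CPM in the controls (SD, n = 6 each; edgeR adjusted p = 0.645). It was at 25.1 CPM in iKO 1, the highest library, and 18.7 ± 1.11 CPM in iKO 2 to 6. These 5 lay below every control, as for 1.27% of all genes. Without iKO 1 the log2 fold change of Ets1 was -0.20 ± 0.07 (edgeR adjusted p = 0.136).

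The other vascular lists were nearer to the background of -0.00 without iKO 1. Medians were -0.07 for vascular signalling, -0.03 for arterial, capillary and venous, -0.13 for endothelial barrier, -0.13 for pericyte and -0.12 for smooth muscle contractile genes. The gene with the smallest p over 12 libraries in the signalling list was Vegfb, a ligand of VEGF receptor 1, at 34.5 ± 3.67 CPM in iKO and 27.8 ± 3.74 CPM in the controls, with a log2 fold change of 0.30 ± 0.09 (edgeR adjusted p = 0.231). Over the same 12 libraries, in the vessel zone list it was Efnb2, the ligand ephrin-B2, at 0.17 ± 0.06, and in the barrier list Abcg2, an efflux transporter, at -0.20 ± 0.09. In the pericyte list Cox4i2, a cytochrome oxidase subunit, was at 0.62 ± 0.31, and in the smooth muscle list Smtn (smoothelin) was at 0.32 ± 0.17. iKO 1 was the highest library for both, and without it Cox4i2 was at 0.38 ± 0.24 and Smtn at 0.21 ± 0.14. Vegfb was called in 2 of the 25 alternatives over 12 libraries and in 3 of the 20 without iKO 1. Efnb2 was called in 1 and 2 of these, and Abcg2, Cox4i2 and Smtn in 0.

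Of the matrix and fibroblast lists, the adventitial one had the lowest median. Without iKO 1 the median was 0.04 for basement membrane, -0.02 for collagens and matrix, -0.31 for adventitial fibroblast and -0.14 for fibroblast activation genes, and 8 of the 9 adventitial genes were negative. Over 12 libraries Lox, the enzyme that crosslinks collagen, was at 20.8 ± 4.95 CPM in iKO and 14.4 ± 2.86 CPM in the controls, a log2 fold change of 0.48 ± 0.16 (edgeR adjusted p = 0.289). Also over 12 libraries, Lamb1, a laminin chain of basement membranes, was at 0.15 ± 0.07, Dpp4, a protease of adventitial fibroblasts, at -0.41 ± 0.32 and Cthrc1, a secreted protein of activated fibroblasts, at 0.38 ± 0.14. With edgeR none of these passed over 12 libraries, and Cthrc1 was called in 1 of the 25 alternatives. Without iKO 1 the log2 fold change was 0.40 ± 0.14 for Lox, 0.14 ± 0.07 for Lamb1, -0.61 ± 0.27 for Dpp4 and 0.41 ± 0.14 for Cthrc1. Of the 20 alternatives without iKO 1, 4 called Lox, 0 Lamb1, 1 Dpp4 and 2 Cthrc1.

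Lists of several other cell types also had negative medians without iKO 1, beside the endothelial and Dcn results. The 10 macrophage genes were all negative without iKO 1, with a median of -0.28. The 5 erythroid genes had a median of -1.04, the 4 lymphocyte genes of -1.05, the 5 neutrophil genes of -0.62, the 4 mast cell genes of -0.48, the 4 lymphatic endothelial genes of -0.45, the 5 adipocyte genes of -0.58, the 7 skeletal muscle genes of -0.78 and the 5 cell cycle genes of -0.92. Of all of these Cd79b (B cell receptor), Top2a and Ccna2 (cell division) were called lower by edgeR, with adjusted p of 0.0253, 0.0304 and 0.0192, where 1.01% of all genes were. At an unadjusted edgeR p under 0.05, 5 macrophage, 5 erythroid, 3 lymphocyte and 4 cell cycle genes were lower. So were 2 mast cell, 2 lymphatic endothelial and 1 adipocyte gene, but 0 neutrophil and 0 skeletal muscle genes. Of all genes, 7.91% were lower at that level. The 4 perineurial genes had a median of -0.15, the 7 meningeal fibroblast genes of -0.06, the 6 satellite glia genes of -0.06, the 10 sensory neuron genes of 0.11, the 3 spinal cord genes of 0.20 and the 7 myelinating Schwann cell genes of 0.20. The summed skeletal muscle genes were at 449 CPM in control 6 and 20.5 to 91.1 CPM in controls 1 to 5. In iKO 2 to 6 they were at 19.3 to 100 CPM, so that control 6 alone stood apart. The summed lymphocyte genes were at 2.45 to 5.68 CPM in iKO 2 to 6, against 5.08 to 9.88 CPM in the controls. The mast cell genes were at 10.8 to 14.4 CPM in iKO 2 to 6, against 12.8 to 20.98 CPM in the controls, so that both lists overlapped. The part of these cell types in the results on vascular and fibroblast genes was not tested.

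The controls differed by injected agent, and the iKO libraries were set against each kind in turn. These comparisons share the iKO libraries. Against the tamoxifen-injected controls 1 of 31 genes was called over 12 libraries, Rgs5, at -0.32 ± 0.06 (edgeR adjusted p = 0.0275), where 1.35% of all genes were called, 0.665% lower. Without iKO 1 it was 5 of 31, all lower, namely Rgs5, Plvap, Dcn, Kdr and Lum, where 2.92% of all genes were called lower. Against the corn-oil controls 0 of 31 were called by edgeR over 12 libraries, with 0 at an unadjusted p under 0.05, where 0.146% of all genes were called. Without iKO 1 Plvap alone was called lower, at -0.53 ± 0.11 (edgeR adjusted p = 0.0248), where 0.504% of all genes were. The corn-oil group held 2 libraries and the tamoxifen-injected control group 4. Without iKO 1, 29 of 31 fold changes were negative against the corn-oil controls, with a median of -0.28 (all genes -0.00). Against the tamoxifen-injected controls 25 of 31 were negative, with a median of -0.23 (all genes -0.01). Rgs5 stood, against the corn-oil controls, at -0.08 ± 0.07 without iKO 1. The corn-oil controls were also replicates 5 and 6, both male and of the iKO genotype. The tamoxifen-injected controls were replicates 1 to 4, of both sexes and other genotypes. Agent, genotype and replicate set thus cannot be told apart here, and whether the difference depended on the agent was not tested.

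Sex was a further term of the design, with 5 female and 7 male libraries. Over 12 libraries 29 of the 31 genes had a negative log2 fold change of male over female, with a median of -0.24, against 50.4% negative among all genes. Of the 31, 0 passed with edgeR, where 0.0549% of all genes did, and 5 reached an unadjusted p under 0.05, against 4.11% of all genes, all of them fibroblast genes (Col1a1, Col1a2, Col3a1, Pdgfra and Pi16). Without the female library iKO 1, 15 of 31 were negative and the median was 0.01. The 5 fibroblast genes stayed negative in that fit, at -0.29 ± 0.10 for Col1a1, -0.23 ± 0.08 for Col1a2 and -0.36 ± 0.14 for Col3a1. Pdgfra was at -0.25 ± 0.08 and Pi16 at -0.62 ± 0.21. Unadjusted p of these 5 in edgeR lay between 0.0106 and 0.0260. After adjustment 0 of the 31 passed, where 0.0669% of all genes did. The interaction of sex with group gave 0 calls among all genes with edgeR (0%), with 5 of 31 genes at an unadjusted p under 0.05, against 3.59% of all genes. Taken as the iKO effect in males minus that in females, it had a median of -0.58 over the 31 that became -0.07 without iKO 1.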

How the data were processed

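The 12 ganglion libraries were prepared from poly(A) RNA with an unstranded TruSeq kit, per the labels' protocols. The submitters' processing notes name GRCm39 and the tools featureCounts 2.0.1, STAR 2.7.8a and bcl2fastq 2.20.0.422. Neither annotation release nor counting options were named in the sources used. Each deposited table holds the authors' raw counts for 1 library, with totals of 13943784 to 20377766. Every pair of libraries of a group differed by more than sampling noise. Whether each library is 1 animal is not stated, and the p-values reflect only variation between these samples, which may be technical.

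Gene names, exon lengths and overlaps came from GENCODE M21, which named 52083 of 55416 identifiers (94%). Counts were filtered with filterByExpr, scaled by TMM (trimmed mean of M-values) and tested with edgeR 4.0.16 (R 4.3.3; robust quasi-likelihood, terms for sex and group, Benjamini-Hochberg over all genes, threshold 0.05), with 9 residual degrees of freedom over 12 libraries and 8 without iKO 1. The biological coefficient of variation was 12.8% and 9.34%. CPM use the TMM-scaled library size. DESeq2 1.42.0, limma-voom in limma 3.58.1, other scalings and filters, terms, subsets and leaving out each library were alternatives. The limma-voom, replicates 1 to 4 and replicate-set fits without iKO 1 and the leave-one-out fits of the contrasts by agent and sex were chosen after seeing the data. Replicates 1 to 4 and 5 to 6 carry 2 ranges of sample numbers, and no label says what these are.

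The genes and all lists were chosen with earlier results of these data known. The text names all 31 genes, Prdm12 and, of each related list, called genes or the gene with the smallest p. Called cell type markers were named after their values were seen. The procedure was tested on simulated counts.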

Additional observations from a re-analysis of the deposited data

Results flagged for a closer look

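For 26 of the 31 genes iKO 1 was so far above the next iKO library that the gap, divided by the range of the 6 iKO libraries, was over Dixon's 95% critical value for 6 samples. Among endothelial genes the quotient was 0.889 for Pecam1, 0.777 for Cdh5, 0.836 for Cldn5, 0.658 for Flt1, 0.858 for Kdr, 0.745 for Tek, 0.899 for Egfl7, 0.795 for Emcn, 0.849 for Esam, 0.838 for Tie1 and 0.920 for Plvap. Among mural genes it was 0.803 for Acta2, 0.764 for Myh11, 0.778 for Pdgfrb and 0.756 for Cspg4. Among fibroblast genes it was 0.849 for Col1a1, 0.782 for Col1a2, 0.802 for Col3a1, 0.836 for Dcn, 0.677 for Lum, 0.772 for Pdgfra, 0.759 for Dpt, 0.718 for Col6a3, 0.626 for Fn1, 0.791 for Mfap5 and 0.637 for Pi16. Rgs5, Postn, Ly6c1, Tagln and Cnn1 had no such gap in the iKO group.

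In the control group the quotient was 0.634 for Col6a3, where control 6 was far above the rest. Among the related genes iKO 1 was far above the other iKO libraries for Ets1 (0.667) and Cox4i2 (0.741). For Prdm12 iKO 1 was far below the other iKO libraries (0.630). In all, 62 such checks were made over the 31 genes, chance gives about 1 in 20, and the checks on 1 library are not independent of each other. The share of all genes with such a gap was not computed, so 1 in 20 is a nominal rate and not a measured background. Among all genes iKO 1 was the highest of the 12 libraries for 24.6% and the lowest for 24.4%.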

How the results depend on the processing

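Over 12 libraries edgeR called 155 genes, and the count was 294 with DESeq2, 1006 with limma-voom, 253 without a filter, 35 and 82 within replicates 1 to 4 and 5 to 6, 235 without the corn-oil controls, 45 in male and 1 in female libraries alone, and 92 to 364 when 1 library was left out. Of the 31 genes, DESeq2 called 1 and limma-voom 4, and leaving out 1 library gave 0 to 3, where the 3 came without iKO 1. The mural median was 0.50 in female libraries alone. Leave-one-out ranges of the medians were -0.28 to -0.02 for endothelial, -0.26 to 0.16 for mural and -0.19 to 0.04 for fibroblast genes. Without iKO 1 edgeR called 364 genes, and the count was 604 with DESeq2, 1193 with limma-voom, 1341 without a filter and 1586 without the corn-oil controls. Of the 31 genes 3 were called, and 9 with DESeq2, 11 without a filter, 5 without the sex term, 9 without the corn-oil controls, 5 within replicates 1 to 4, 6 with the replicate set as a term and 7 with limma-voom. Leaving out a further library gave 194 to 874 genes, 1 to 10 members and medians of -0.30 to -0.24 (endothelial), -0.29 to -0.14 (mural) and -0.25 to -0.15 (fibroblast). The 874 genes and 10 members came without control 5, while 1 member was left without iKO 2, 3 or 5 or control 1 or 2. Against tamoxifen-injected controls the ranges were 98 to 1459 genes and 0 to 5 members, and against corn-oil controls 3 to 160 and 0 to 1, and iKO 1 set the upper ends. They were 8 to 11 and 0 to 0 for male against female, and 0 to 1 and 0 to 0 for the interaction. With the replicate number as a block in place of sex, 161 genes and 0 members were called over 12 libraries and 228 and 2 without iKO 1, where Kdr was lost. Deviations of same-numbered libraries correlated between -0.153 and 0.217, and for 3 of the 6 numbers the highest correlation was with the same number. Since this did not hold for every number and no label ties the numbers to animals or batches, the number was not used to pair samples. Medians otherwise moved by less than the spread between replicates, and no call changed direction. Over 12 libraries that spread includes iKO 1 itself, so it cannot show whether the medians held when iKO 1 was left out. That omission moved the endothelial median from -0.08 to -0.28, the mural one from 0.01 to -0.26 and the fibroblast one from -0.02 to -0.19. The cause of these changes was not tested. Cnn1, with 16 to 88 counts a library, is the gene for which depth limits precision.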
